A study of Homo sapiens with 12 samples.

Results

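The comparison set the CD33-edited cells of a 2 by 2 knockout design against the CD33-intact cells. All 12 libraries of the study entered it: 6 libraries carried the CD33 edit (3 of the CD33 KO clone and 3 of the CD33/CD123 KO clone), and 6 did not (3 of wt cells and 3 of the CD123 KO clone). The main effect of the edit was the mean log2 level of both edited genotypes minus the mean of both intact genotypes. Of 14010 genes tested, 700 passed the test and also separated every edited library from every intact library, 88 of them higher and 612 lower in the edited cells. These 700 genes are the members described here. Separation means that the lowest library of a side lay above the highest library of the other side.

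The cells were OCI-AML3, a human acute myeloid leukaemia (AML) line that carries mutated NPM1. The wt group was the unedited parental line. The CD33 KO, CD123 KO and CD33/CD123 KO groups were each 1 single-cell clone, made by electroporating parental cells with Cas9 protein and a guide RNA, enriching edited cells on magnetic beads, sorting and cloning. No other agent was given and all groups grew in the same medium. Poly(A)-selected RNA was sequenced in triplicate for each genotype. The labels do not say whether the triplicates were separate cultures, and the p-values therefore reflect only how far these libraries spread. Each side of the comparison holds 2 cell populations, and no unedited clone was among the controls. The effect of the CD33 edit and the differences between clones cannot be told apart. Nor do the labels say whether the CD33/CD123 KO clone was edited in 1 step or in sequence.

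CD33 (Siglec-3) is a receptor of myeloid cells that binds sialic acid and signals through cytoplasmic inhibitory motifs (ITIMs), which recruit the phosphatases encoded by PTPN6 and PTPN11. CD123, encoded by IL3RA, is the subunit that gives the interleukin-3 receptor its ligand specificity. Both proteins are surface targets of immunotherapy in AML. NPM1-mutated AML is known for high expression of HOXA and HOXB genes together with their cofactor MEIS1.

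The CD33 guide is shown because it defines the sides of the comparison. It is written 5′ to 3′ with the adjacent NGG motif (PAM) in capitals:
CD33 guide and PAM: ggccgggttctagagtgccaGGG
The guide matched the CD33 gene at chr19:51225834-51225853 (GRCh38), on the strand opposite to the transcript and inside exon 3 of 7 of a coding transcript. CD33 mRNA was slightly lower in the edited cells. Its CPM level (counts scaled to library size) was 48.6, 51.2 and 51.4 in the wt libraries, 51.7, 56.3 and 55.5 in the CD123 KO libraries, 39.7, 41.4 and 38.6 in the CD33 KO libraries, and 48.2, 48.3 and 40.5 in the CD33/CD123 KO libraries. The sides did not overlap, but the gap between the highest edited and the lowest intact library was only 0.01 on the log2 scale. The main effect was -0.30 (SE 0.04, edgeR quasi-likelihood test with Benjamini-Hochberg adjustment, adjusted p = 3.76e-07), which is under the fold threshold used here. The sides overlapped when CD123 KO library 1 was left out of the fit. A gene count covers all exons and cannot show a small edit, so this level does not test the knockout. IL3RA spanned 3.96 to 8.58 CPM in the edited and 3.05 to 9.09 CPM in the intact libraries, which overlapped, and its main effect of 0.21 did not pass the test (edgeR adjusted p = 0.133). That mean joined opposite effects, -0.70 with CD123 intact and 1.13 with CD123 edited (edgeR adjusted p = 0.00109 and 2.88e-05). Without CD33/CD123 KO library 3 or without wt library 2 the main effect was 0.29 or 0.30 (edgeR adjusted p = 0.0287 and 0.038). IL3RA is listed on more than 1 chromosome in the table.

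Library totals ran from 15583315 to 61827969 counts, so that 3 counts correspond to between 0.0504 and 0.187 CPM. Along the first principal component (55.6% of the variance), the genotypes fell on the sides of the CD33 edit, with the intact libraries between -61.78 and -37.78 and the edited libraries between 45.92 and 53.57. Markers of the myeloid line were present in every library, with SPI1 at 228 to 280.3 CPM and CEBPA at 568.6 to 784.5 CPM, while MPO stayed between 1.23 and 2.62 CPM. Not all were even across libraries, as LYZ ran from 165 to 1678 CPM and MEIS1 from 0.521 to 31.9 CPM. Markers of other blood and stromal cell types were low or shared with the line. In the T and NK cell list, 11 of 15 markers were under 1 CPM in every library and CD3D, CD3E, CD2 and KLRD1 had no count. The sum of that list was nevertheless the highest of these lists, at 176.6 to 365.8 CPM in the edited and 240.7 to 325.6 CPM in the intact libraries, led by NCAM1, an adhesion molecule of NK cells and neurons. HBB, HBD and AHSP of the erythroid list and COL3A1, LUM, EPCAM and KRT19 of the fibroblast and epithelial list had no count either. The summed B cell markers ran from 0.219 to 0.38 CPM in the edited and from 1 to 4.88 CPM in the intact libraries, led by EBF1, with no count for CD22 or BLK. Summed mast cell, basophil and eosinophil markers ran from 37.7 to 45.2 CPM in the edited and from 33.5 to 98.3 CPM in the intact libraries, led by GATA2. The part of these differences in the results below was not tested.

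Genes that fell in the CD33-edited cells far outnumbered those that rose. A call required an adjusted p below 0.05 and a log2 fold change beyond 1.5 in either direction. The main effect called 973 of 14010 genes (6.95%), 128 higher (0.914%) and 845 lower (6.03%). Without the fold threshold, 9425 genes (67.3%) passed at adjusted p alone, almost evenly divided into 4608 higher (32.9%) and 4817 lower (34.4%). Separation by itself was common too, since 3764 genes (26.9%) did not overlap between the sides, 1951 higher (13.9%) and 1813 lower (12.9%). Calls with separation came to 88 genes higher (0.628%) and 612 lower (4.37%), 700 in all (5%). The median main effect over all genes tested was -0.02, that of the 88 genes 2.09 and that of the 612 genes -3.08, where the thresholds set the distance from 0. For comparison of extent, the CD123 main effect in the same fit called 349 genes (2.49%), 147 higher (1.05%) and 202 lower (1.44%).

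The excess of lower calls lay among genes of low level. Among genes under 1 CPM on average, 13.4% were called lower with separation and 0.794% higher. Between 1 and 10 CPM these shares were 9.68% and 1.45%, and between 10 and 100 CPM 1.04% and 0.327%. Over 100 CPM the order turned, with 2 genes lower (0.0821%) and 8 higher (0.328%) of 2436. A count of 0 in all 6 edited libraries was found for 35 of the 612 lower genes. TWIST2, a basic helix-loop-helix factor, was the 1 gene of the 88 with no count in any intact library, against 0.706, 0.66 and 0.67 CPM in the CD33 KO and 0.0866, 0.18 and 0.347 CPM in the CD33/CD123 KO libraries. It was picked out after its values were seen.

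ZIC1, LHX2 and POU4F1, transcription factors best known from the nervous system, were among the genes lost from the edited cells. In bulk RNA, fewer cells with a transcript and less of it per cell cannot be told apart. ZIC1, a zinc finger factor, was at 9.28, 9.79 and 8.48 CPM in wt and at 3.23, 2.58 and 3.12 CPM in CD123 KO libraries, and it had no count in any of the 6 edited libraries. LHX2, a LIM-homeobox factor, was at 68.4, 74.9 and 69.9 CPM in wt, 75.7, 76.7 and 77.6 CPM in CD123 KO, 0.218, 0.06 and 0.145 CPM in CD33 KO and 0.303, 0.3 and 0.289 CPM in CD33/CD123 KO libraries. POU4F1, a POU-homeobox factor of sensory neurons, was at 4.89 to 18.39 CPM in the intact and 0 to 0.116 CPM in the edited libraries. All 3 genes were thus present in every intact library, though only LHX2 was at a high level in each, and at or near 0 in every edited library. With 1266 counts against 0, ZIC1 was at least 414.2-fold lower in the edited cells when 3 counts over the side were taken as the floor. With CD123 edited, where the edited libraries held fewer reads, the bound was 56.5-fold. LHX2 fell by 8.40 on the log2 scale (SE 0.08, edgeR adjusted p = 3.89e-30), the lowest adjusted p of those given here. POU4F1 fell by 9.17 (SE 0.21, edgeR adjusted p = 4.2e-21).

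CCDC120 and GSPT2, both on the X chromosome, also had no count in the edited libraries. CCDC120, a coiled-coil protein gene at chrX:48910961-48927510 (hg19), was at 8.84, 8.25 and 8.35 CPM in wt and 3.91, 5.26 and 5.6 CPM in CD123 KO libraries, at least 455.4-fold above the floor (95.6-fold with CD123 edited). GSPT2, which encodes a translation termination factor and lies at chrX:51486481-51489326, was at 4.42, 3.71 and 3.34 CPM in wt and 8.61, 7.67 and 6.46 CPM in CD123 KO libraries, at least 384.7-fold above the floor (141.8-fold with CD123 edited). MAGED1, a melanoma antigen family gene that lies nearby at chrX:51546155-51645450, spanned 34.01 to 58.2 CPM in the intact and 0 to 0.231 CPM in the edited libraries. Its main effect was -8.93 (SE 0.12, edgeR adjusted p = 2.9e-27). None of these genes had an edited library anywhere near an intact one.

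Further genes were lost to a like degree. EEF1A2, a translation elongation factor of muscle and neurons, was at 16.01 to 22.6 CPM in the intact and at most 0.0866 CPM in the edited libraries. Between CD33 KO and wt it counted 2 reads against 1726, a ratio of 1253 with a 95% exact counting interval of 346.5 to 10360. NEFH, the heavy neurofilament chain, was at 89.4, 87.2 and 90.7 CPM in wt and 24.5, 26.3 and 22.8 CPM in CD123 KO libraries, against 0.0433 to 0.18 CPM in the edited libraries (main effect -8.90, SE 0.10, edgeR adjusted p = 6.82e-29). B4GALNT4, a glycosyltransferase gene, was at 1.99 to 12.2 CPM in the intact libraries and had a single count over the edited side, a ratio of 1447 with an interval of 259.2 to 57180. RAB13, a vesicle-traffic GTPase, and NEURL1, a ubiquitin ligase, had main effects of -9.00 and -7.65 (edgeR adjusted p = 5.78e-23 and 4.02e-24). The pseudogene NUDT16P1 had -8.80 (edgeR adjusted p = 9.53e-23) and may share reads with NUDT16, as the handling of multiply mapped reads is not given. Such intervals and floors cover counting error only, and fitted fold changes of genes at 0 depend on the prior count and are no bounds.

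The genes that rose most clearly in both edited clones came from several functional classes. TDRD5, a tudor-domain protein of the germline piRNA pathway, was at 0.373, 0.425 and 0.63 CPM in wt, 0.17, 0.364 and 0.214 CPM in CD123 KO, 9.65, 9.33 and 8.98 CPM in CD33 KO and 5.85, 5.39 and 5.26 CPM in CD33/CD123 KO libraries. Its main effect was 4.35 (SE 0.14, edgeR adjusted p = 1.28e-19). Its separate effects were close to each other, 4.26 with CD123 intact and 4.43 with CD123 edited, and the gap between the sides was 3.06 on the log2 scale. L3MBTL4, an MBT-domain chromatin protein, spanned 2.73 to 10.4 CPM in the edited and 0.504 to 0.831 CPM in the intact libraries (main effect 3.26, SE 0.16, edgeR adjusted p = 3.12e-15). ADAM22, a catalytically inactive ADAM protein, spanned 12.9 to 15.8 CPM against 0.685 to 2.86 CPM (main effect 2.95, SE 0.10, edgeR adjusted p = 8.66e-18). AGPAT4, an acyltransferase of phospholipid synthesis, spanned 6.59 to 8.39 CPM against 0.872 to 1.91 CPM (main effect 2.51, SE 0.12, edgeR adjusted p = 8.65e-16). TPD52, tumour protein D52, was at 5.6, 6.28 and 5.99 CPM in wt, 11.8, 10.5 and 12.9 CPM in CD123 KO, 83.4, 87.6 and 86.02 CPM in CD33 KO and 51.4, 52.5 and 57.1 CPM in CD33/CD123 KO libraries. Every edited library of these genes lay well above every intact library.

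Several of the largest risers were already higher in the CD123 KO clone than in wt cells. ITIH5, an inter-alpha-trypsin inhibitor heavy chain, was at 1.25, 0.24 and 0.567 CPM in wt, 127.2, 126.3 and 131.4 CPM in CD123 KO, 298.8, 301.5 and 301.5 CPM in CD33 KO and 254.1, 245.3 and 263.3 CPM in CD33/CD123 KO libraries. The sides did not overlap, yet its effect was 9.21 with CD123 intact and 0.99 with CD123 edited. ZNF503-AS1, an antisense RNA that cannot be told from reads of overlapping genes because it is not stated whether reads were counted by strand, showed the same order, with 0 to 0.0623 CPM in wt, 7.42 to 8.03 CPM in CD123 KO and 16.8 to 20.7 CPM in the edited libraries. It had 2 counts over the wt libraries against 3004 over the CD33 KO libraries, a ratio of 1034 with an interval of 286 to 8543. TFEC, a transcription factor of the MITF family, was at 0.934, 0.794 and 0.756 CPM in wt, 6.12, 5.4 and 6.58 CPM in CD123 KO, 19.5, 21.2 and 21.4 CPM in CD33 KO and 21.2, 18.9 and 18.9 CPM in CD33/CD123 KO libraries (main effect 3.19, SE 0.08, edgeR adjusted p = 6.7e-22). SLPI, the secretory leukocyte protease inhibitor, and CNKSR3, a scaffold protein of RAS signalling, had main effects of 2.77 and 2.84 (edgeR adjusted p = 3.04e-22 and 1.44e-16). UBL4B, a ubiquitin-like gene, and the uncharacterised transcript UG0898H09 had 3.99 and 3.10 (edgeR adjusted p = 4.03e-16 and 6.87e-20).

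**Figure D1:**
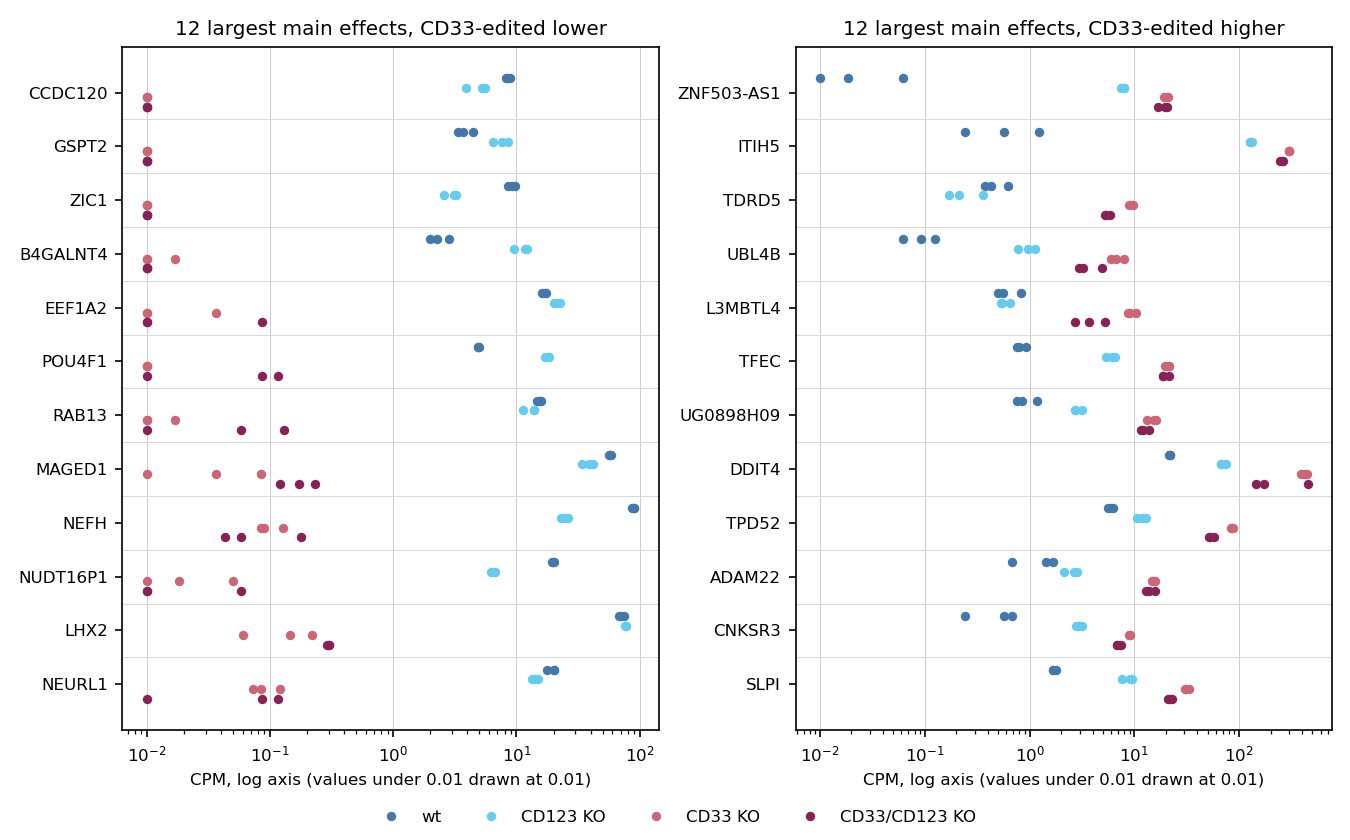
Level in each of the 12 libraries (CPM, log axis, values under 0.01 drawn at 0.01) of the 12 genes per direction with the largest main effects among separated genes whose higher side averaged 5 CPM or more; each point is a library, coloured by genotype. In the left panel the edited libraries sit at or under 0.303 CPM and the intact libraries at or above 1.99 CPM, and in the right panel ITIH5, ZNF503-AS1 and TFEC show the CD123 KO libraries between wt and the edited clones.

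Promoter windows of 2 genes from each direction are shown: ZIC1 and LHX2, which were at or near 0 in both edited clones, and TDRD5 and TFEC, which were called higher in both backgrounds, TFEC from a level of 5.4 to 6.58 CPM in the CD123 KO libraries. Each runs from 250 bases before to 50 bases after the RefSeq start (GRCh38.p14), 5′ to 3′ along the gene, with CG dinucleotides in capitals; CG reads the same on both strands and its matches do not overlap. The windows are ZIC1 at chr3:147409115-147409414 (plus strand), LHX2 at chr9:124011518-124011817 (plus strand), TDRD5 at chr1:179591363-179591662 (plus strand) and TFEC at chr7:116030714-116031013 (minus strand).
ZIC1: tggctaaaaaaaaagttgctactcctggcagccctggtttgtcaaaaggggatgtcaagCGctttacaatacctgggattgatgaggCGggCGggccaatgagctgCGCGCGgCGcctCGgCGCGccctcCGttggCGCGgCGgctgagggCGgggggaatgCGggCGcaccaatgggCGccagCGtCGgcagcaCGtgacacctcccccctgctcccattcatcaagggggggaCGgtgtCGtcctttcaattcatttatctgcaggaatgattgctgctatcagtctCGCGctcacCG
LHX2: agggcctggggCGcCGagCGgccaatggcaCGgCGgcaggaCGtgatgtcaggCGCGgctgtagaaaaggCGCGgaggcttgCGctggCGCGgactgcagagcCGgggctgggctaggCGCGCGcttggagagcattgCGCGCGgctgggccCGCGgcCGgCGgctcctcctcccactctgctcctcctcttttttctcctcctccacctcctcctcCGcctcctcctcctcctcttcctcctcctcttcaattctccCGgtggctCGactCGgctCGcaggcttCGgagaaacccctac
TDRD5: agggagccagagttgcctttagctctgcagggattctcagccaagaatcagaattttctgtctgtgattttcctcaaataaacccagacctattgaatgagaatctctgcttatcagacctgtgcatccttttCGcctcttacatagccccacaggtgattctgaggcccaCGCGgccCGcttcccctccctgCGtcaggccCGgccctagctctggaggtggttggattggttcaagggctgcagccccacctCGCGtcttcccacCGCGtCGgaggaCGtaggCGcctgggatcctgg
TFEC: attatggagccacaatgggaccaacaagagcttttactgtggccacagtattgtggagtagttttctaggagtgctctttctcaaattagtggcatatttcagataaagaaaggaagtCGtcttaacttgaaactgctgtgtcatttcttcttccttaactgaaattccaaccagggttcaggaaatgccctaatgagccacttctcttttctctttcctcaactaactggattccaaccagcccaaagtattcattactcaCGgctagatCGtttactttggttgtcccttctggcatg
The windows of the lost genes ZIC1 and LHX2 held 26 and 30 CG dinucleotides, counts reached by 29.8% and 22.1% of the 27305 windows in the table. Those of the gained genes TDRD5 and TFEC held 13 and 3, reached by 51.5% and 81% of windows. These 4 windows are a description and do not stand for the 2 directions. Counts for other genes named above overlapped between the directions. MAGED1 and B4GALNT4, which fell, held 10 and 50, and UBL4B and L3MBTL4, which rose, held 4 and 35. A comparison over all members was void, since windows were found for 79.5% of the 88 higher and 67.6% of the 612 lower genes, under the 80% required.

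The CD33 effect can be read in each CD123 background separately, and those contrasts share no library. CD33 KO minus wt called 1184 genes (8.45%), 274 higher (1.96%) and 910 lower (6.5%). CD33/CD123 KO minus CD123 KO called 1071 genes (7.64%), 132 higher (0.942%) and 939 lower (6.7%). The same 517 genes were lower in both, which is 56.8% of the first set and 55.1% of the other. Higher in both were 42 genes, 15.3% of the first set and 31.8% of the other. Calls of opposite direction were made for 53 genes. Of the 612 separated lower genes, 467 were called in both backgrounds, 84 only with CD123 intact and 61 only with CD123 edited. Of the 88 separated higher genes, 39 were called in both, 39 only with CD123 intact and 10 only with CD123 edited. The main effect is the mean of the 2 background effects, so these last counts are not independent of the choice of members.

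The interaction, which is the CD33 effect with CD123 edited minus that with CD123 intact, was called for 855 genes (6.1%), 339 positive (2.42%) and 516 negative (3.68%). It was called for 35 of the 88 and for 169 of the 612 separated genes. SERPINB2, the plasminogen activator inhibitor PAI-2, was at 18.3, 16.2 and 16.1 CPM in wt, 55.5, 50.5 and 59.2 CPM in CD123 KO, 238.4, 244.8 and 246.9 CPM in CD33 KO and 84.9, 90.4 and 83.2 CPM in CD33/CD123 KO libraries. The sides did not overlap, with an effect of 3.87 in 1 background and 0.64 in the other (interaction -3.23, edgeR adjusted p = 3.37e-21). MYO1G, a class I myosin of blood cells, was at 307.2 to 318.1 CPM in wt, 157.3 to 179.2 CPM in CD123 KO and 100.2 to 105.6 CPM in CD33 KO, but at 0.823, 0.539 and 0.405 CPM in CD33/CD123 KO libraries (interaction -6.45, edgeR adjusted p = 2.25e-22). Here the CD33/CD123 KO clone alone was near 0. SDC2, the proteoglycan syndecan-2, went the other way, with 17.9 to 18.8 CPM in CD33 KO and 53.8 to 61.3 CPM in CD33/CD123 KO against 97.3 to 128.1 CPM in the intact libraries (interaction 1.96, edgeR adjusted p = 7.94e-18). FEZ1, a kinesin adaptor, was at 54.5 to 56.8 CPM in CD33 KO and 13.9 to 17.3 CPM in CD33/CD123 KO against 109 to 120 CPM in the intact libraries (interaction -1.93, edgeR adjusted p = 1.24e-16). TNN, a tenascin of the extracellular matrix, had effects of 2.71 and 0.39 (interaction -2.31, edgeR adjusted p = 2.41e-14).

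**Figure D2:**
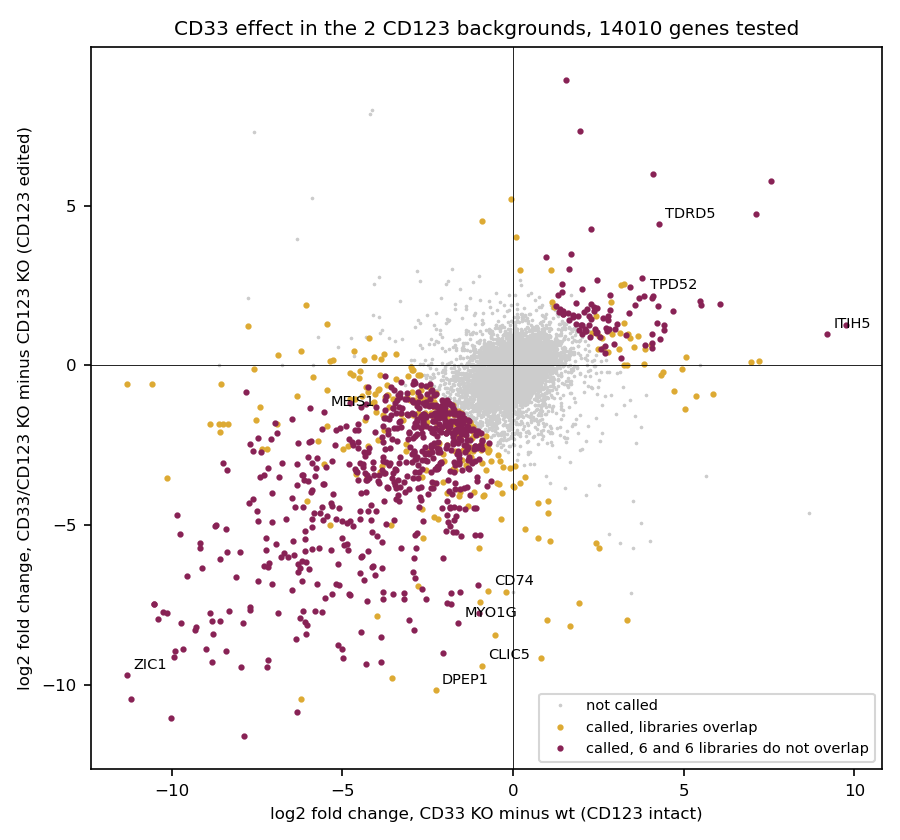
CD33 effect with CD123 intact (x axis, CD33 KO minus wt, log2) against that with CD123 edited (y axis, CD33/CD123 KO minus CD123 KO, log2) for the 14010 genes tested; dark points are called without overlap of the 6 and 6 libraries, yellow points are called with overlap. The lower left part of the plot holds most of the dark points, 467 of which were called lower in both backgrounds, while yellow points such as CD74 and CLIC5 lie near an axis.

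Of the called genes, 40 higher and 233 lower did not separate the sides, and 28 and 89 of these had a called interaction. CDKN2A, which encodes the cell cycle inhibitor p16 and the p53 activator ARF, is an example: it was at 11.9, 9.01 and 6.87 CPM in wt, 187.3, 181.7 and 167.5 CPM in CD123 KO, 130.7, 128.5 and 132 CPM in CD33 KO and 238.2, 248.7 and 273.7 CPM in CD33/CD123 KO libraries. Only the wt libraries were low, so the main effect of 2.19 (SE 0.08, edgeR adjusted p = 2.95e-09) did not follow the CD33 edit alone, and it was not called when the libraries were fitted as 2 groups of 6 (1.02, edgeR adjusted p = 0.3). The pseudogene DUXAP8, which has near-identical copies, had the same order, at 0.0315 to 0.125 CPM in wt and 8.44 to 14.8 CPM in all other libraries. ANXA8L1, whose reads may be shared with the near-identical ANXA8, was at 14 to 14.8 CPM in CD123 KO, above all edited libraries, and had a main effect of 2.48 all the same, as wt had 1 count in all (edgeR adjusted p = 1.64e-07).

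On the lower side, DPEP1, a membrane dipeptidase, and CLIC5, a chloride channel family protein, were at 23.2 to 24.7 and 24.9 to 27.1 CPM in CD123 KO and at most 0.187 CPM in every other library. They were thus high in the CD123 KO clone alone. TPSAB1, a mast cell tryptase whose reads may be shared with TPSB2, was at 8.53 to 10.97 CPM in CD123 KO and at most 1.28 CPM elsewhere. CD74, the invariant chain of HLA class II, was at 106.4 to 118.1 CPM in wt, 48.9 to 62.8 CPM in CD123 KO and 64.4 to 68.6 CPM in CD33 KO, and at 0.433, 0.419 and 0.405 CPM in CD33/CD123 KO libraries. The closest separated call was TSLP, an epithelial cytokine gene, with a gap of 0.02 on the log2 scale between 2.76 CPM in the highest edited and 2.8 CPM in the lowest intact library (main effect -2.13, edgeR adjusted p = 3.5e-14). The closest overlapping call was EGR3, an early growth response factor, with an overlap of 0.06 (5.84 against 5.61 CPM, main effect -2.21, edgeR adjusted p = 0.000105). It separated when wt library 2 or CD33/CD123 KO library 3 was left out, as DPEP1 did without wt library 3 or CD33/CD123 KO library 3. At such margins the line between separated and overlapping rests on a single library.

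HOX genes, homeobox factors that pattern the body axis and are kept active in NPM1-mutated AML, were the list with the most members lost. Of 27 HOX genes and cofactors tested, 16 were called lower and 15 of these separated the sides, against 6.03% and 4.37% of all genes. None was called higher, and the median main effect was -3.67 against -0.02 over all genes. All 8 HOXB genes from HOXB2 to HOXB9 fell with separation, with main effects from -4.86 (HOXB9) to -7.31 (HOXB6). HOXB3 was at 35.2, 40.7 and 39.8 CPM in wt, 30.01, 29.8 and 31.9 CPM in CD123 KO, 0.387, 0.39 and 0.181 CPM in CD33 KO and 0.693, 0.539 and 0.636 CPM in CD33/CD123 KO libraries (main effect -6.27, SE 0.10, edgeR adjusted p = 3.55e-26). HOXB2 spanned 12.6 to 20.9 CPM in the intact and 0.0336 to 0.303 CPM in the edited libraries (main effect -7.11, SE 0.14, edgeR adjusted p = 1.17e-23). HOXB6 spanned 7.19 to 14.7 CPM against 0 to 0.173 CPM (main effect -7.31, SE 0.17, edgeR adjusted p = 3.08e-22). None of these 8 genes reached 1 CPM in an edited library. HOXB2 and HOXB6 were lower in CD33 KO than in CD33/CD123 KO (interaction 2.54 for each, edgeR adjusted p = 0.000391 and 0.00614), with both clones near the floor.

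The loss did not extend over whole clusters. HOXA3, HOXA4, HOXA5 and HOXA6 fell with separation, with main effects of -5.31, -5.98, -5.02 and -6.18, and HOXA2 was called with overlap, as wt library 1 had no count. HOXA9, the member most often named in AML, was at 19.6, 21.7 and 19.3 CPM in wt, 24.8, 24.04 and 23.5 CPM in CD123 KO, 20.5, 20.5 and 19.7 CPM in CD33 KO and 23.3, 19.5 and 26.6 CPM in CD33/CD123 KO libraries. These overlapped, and the main effect of -0.03 did not pass the test (edgeR adjusted p = 0.624). HOXA10, HOXA11 and HOXA13 had small main effects of -0.28, -0.56 and -0.41 without overlap, and HOXB13 had -0.39 with overlap. The HOXA9 to HOXA13 and HOXB13 values were picked after they were seen. MEIS1, the cofactor of HOX proteins, was at 31.9, 30.7 and 30.2 CPM in wt, 12.3, 13.8 and 13.3 CPM in CD123 KO, 0.521, 0.84 and 0.688 CPM in CD33 KO and 5.11, 4.37 and 4.8 CPM in CD33/CD123 KO libraries. It separated the sides (main effect -3.50, SE 0.08, edgeR adjusted p = 1.76e-22), and its interaction was 4.09 (edgeR adjusted p = 4.06e-16). The cofactor PBX3 had a main effect of -0.05.

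**Figure D3:**
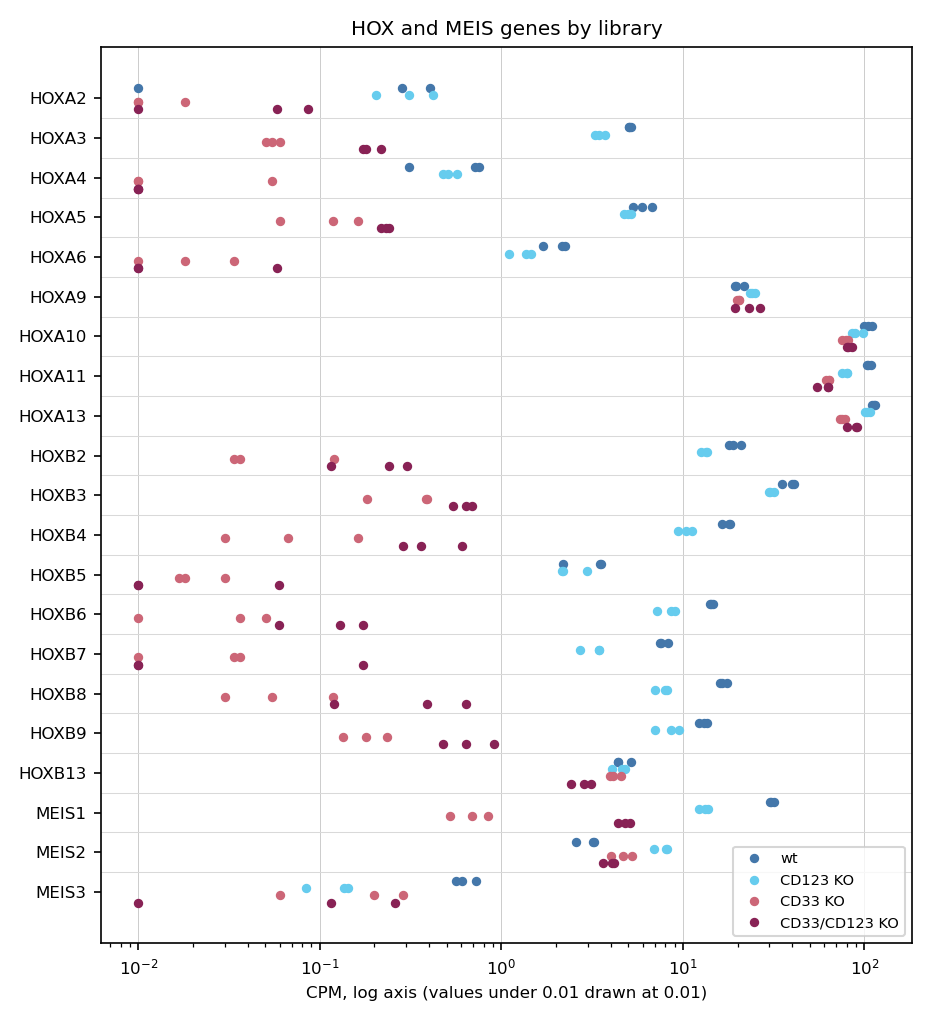
Level in each library (CPM, log axis, values under 0.01 drawn at 0.01) of HOXA, HOXB and MEIS genes tested; points are libraries coloured by genotype. The edited libraries lie far to the left of the intact ones from HOXB2 to HOXB9 and from HOXA3 to HOXA6, and close to them for HOXA9 to HOXA13.

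Receptors related to CD33 and their adaptors were the next group. Of 6 Siglec genes tested, 3 were called lower and 2 separated, SIGLEC9 and SIGLEC1 (median main effect -1.59), against 6.03% and 4.37% of all genes. Neither was called in a test against the fold threshold itself (glmTreat, edgeR adjusted p = 0.291 and 0.406). SIGLEC9, another inhibitory Siglec of myeloid cells, spanned 0.616 to 1.37 CPM in the intact and 0.116 to 0.42 CPM in the edited libraries (main effect -2.0, SE 0.28, edgeR adjusted p = 6.97e-07). SIGLEC1, the macrophage Siglec without an ITIM, reached at most 0.392 CPM (main effect -2.22, SE 0.46, edgeR adjusted p = 0.000151), and its value was -4.41 without CD33/CD123 KO library 1, the only library of that clone with a count. Both were at low level. Of 24 receptors and adaptors that signal through ITIMs or activating motifs (ITAMs), 1 was called higher and 8 lower, 6 of the latter with separation (median -0.69), against the same shares of all genes.

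TYROBP, the ITAM adaptor DAP12 that serves many myeloid receptors, had the strongest change of that list. It was at 29.8, 27 and 25.2 CPM in wt, 29.3, 31.7 and 29.5 CPM in CD123 KO, 0.756, 0.57 and 0.905 CPM in CD33 KO and 0.433, 0.24 and 0.52 CPM in CD33/CD123 KO libraries. Both edited clones were near 0 and both intact populations close to each other (main effect -5.68, SE 0.10, edgeR adjusted p = 4.97e-25). LILRA1 and LILRB1, an activating-type and an inhibitory leukocyte immunoglobulin-like receptor, had main effects of -4.52 and -3.29 (edgeR adjusted p = 1.22e-16 and 7.6e-11), and reads of LILR genes may be shared between copies. PILRA, an inhibitory receptor, spanned 8.56 to 10.02 CPM in the intact and 2.1 to 3.18 CPM in the edited libraries, with effects of -1.84 and -1.83 in the 2 backgrounds (main effect -1.84, SE 0.10, edgeR adjusted p = 9.48e-15). Of 21 kinases and phosphatases of ITIM and ITAM signalling, 2 were called lower, and SOCS3, a feedback inhibitor of cytokine signalling, alone separated the sides (0.819 to 3.11 against 0.173 to 0.319 CPM, main effect -2.73, SE 0.23, edgeR adjusted p = 9.67e-11). Those counts are near the 6.03% and 4.37% of all genes. The phosphatase genes PTPN6 and PTPN11 had main effects of 0.01 and 0.18. Of 26 genes of IL-3 signalling, 1 was called lower (STAT5A, -2.48, with overlap) and none higher, near the 6.03% and 0.914% of all genes.

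Monocyte genes changed in part. Of 37 monocyte and macrophage genes tested, 11 were called lower and 10 of these separated, and none was called higher, against 6.03% and 4.37% of all genes called lower and lower with separation. The median main effect was -0.18, and the medians of the separate background effects had opposite signs, 0.19 with CD123 intact and -0.36 with CD123 edited. CD36, a scavenger receptor, was at 81.99, 82.7 and 85.9 CPM in wt, 122.3, 125.7 and 111.3 CPM in CD123 KO, 12.4, 11.7 and 12.04 CPM in CD33 KO and 53.2, 57.3 and 50.9 CPM in CD33/CD123 KO libraries (main effect -1.97, SE 0.04, edgeR adjusted p = 2.77e-24). The CD33 KO clone was the lowest and the CD33/CD123 KO clone lay between it and the intact libraries. CX3CR1, the fractalkine receptor, spanned 5.69 to 21.4 CPM against 1.21 to 2.95 CPM (main effect -2.65, SE 0.09, edgeR adjusted p = 6.16e-19). CD14, the lipopolysaccharide co-receptor, spanned 3.51 to 6.61 CPM against 0.0578 to 0.336 CPM (main effect -5.10, SE 0.19, edgeR adjusted p = 5.96e-18). Other members of the list went the opposite way or not at all. CD68, a lysosomal protein of macrophages, spanned 471 to 556.3 CPM in the edited and 206.6 to 356.1 CPM in the intact libraries, a main effect of 0.91 that stayed under the fold threshold.

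Of 18 granulocyte genes, 4 were called lower (6.03% of all genes), and only PRSS57, a serine protease of neutrophil granules, separated the sides (0.41 to 0.872 against 0 to 0.06 CPM, main effect -5.83, SE 0.63, edgeR adjusted p = 1.71e-08), near the 4.37% of all genes. Of 32 myeloid and stem cell transcription factors, 1 was called higher and 4 lower, against 0.914% and 6.03% of all genes. TFEC rose, as given above, while its relative MITF fell from 3.53 to 8.09 CPM in the intact to 0.719 to 2.08 CPM in the edited libraries (main effect -1.91, SE 0.14, edgeR adjusted p = 3.52e-12). KLF2, a zinc finger factor of leukocyte quiescence, fell from 9.09 to 25.6 CPM to 2.28 to 5.91 CPM (main effect -1.81, SE 0.15, edgeR adjusted p = 4.86e-07). SPI1 and CEBPA, which drive the myeloid fate, had main effects of -0.10 and 0.34. Of 17 surface antigens discussed as targets in AML, 3 were called lower and 2 of these separated, against 6.03% and 4.37% of all genes. LGALS9, galectin-9, spanned 18.8 to 21.5 CPM in the intact and 2.91 to 10.6 CPM in the edited libraries (main effect -1.84, SE 0.08, edgeR adjusted p = 6.24e-17). ITGB7, the integrin beta-7 chain, spanned 1.02 to 4.13 CPM against 0.231 to 0.996 CPM (main effect -1.84, SE 0.20, edgeR adjusted p = 1.54e-08).

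Part of the inflammatory genes fell in the edited cells. Of 26 NF-kB and inflammatory genes, 6 were called lower, all with separation, and none higher, against 4.37% of all genes lower with separation. The median of -0.49 lay between -0.06 with CD123 intact and -1.17 with CD123 edited. IL1B, the cytokine interleukin-1 beta, was at 21.7, 27.05 and 27.1 CPM in wt, 20.7, 19.7 and 19.4 CPM in CD123 KO, 5.14, 4.29 and 4.8 CPM in CD33 KO and 6.71, 7.07 and 6.42 CPM in CD33/CD123 KO libraries (main effect -1.99, SE 0.07, edgeR adjusted p = 6.16e-19). Its edited libraries were close to each other and all below the intact ones. The chemokine genes CCL2 and CCL3 spanned 6.79 to 8.44 and 1.18 to 16.8 CPM in the intact, and 0.18 to 3 and 0.403 to 1.04 CPM in the edited libraries (main effects -2.96 and -2.65, edgeR adjusted p = 1.8e-16 and 5.71e-12). BCL2A1, an anti-apoptotic BCL2 relative, had a main effect of -2.59 (edgeR adjusted p = 6.23e-10). NFKB1 and RELA, subunits of the factor itself, had -0.06 and -0.05. Of 20 adhesion and chemoattractant receptors, 5 were called lower, all with separation, and none higher, against 4.37% of all genes lower with separation. The list as a whole did not fall, with a median of 0.04. At adjusted p alone 8 members were higher and 8 lower, against 32.9% and 34.4% of all genes. After CX3CR1 the calls were led by ITGA6, the integrin alpha-6 chain (main effect -2.07, SE 0.17, edgeR adjusted p = 7.87e-11). C5AR1, the C5a receptor, had -3.13 at under 1 CPM (edgeR adjusted p = 7.8e-06). Of 29 interferon-stimulated genes, 4 were called lower (6.03% of all genes) and RSAD2, the antiviral protein viperin, alone separated the sides (1.68 to 2.38 against 0.216 to 0.75 CPM, main effect -2.42, SE 0.20, edgeR adjusted p = 4.71e-11), which is no larger a share than the 4.37% of all genes.

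Of 24 p53 target genes, 3 were called lower, all with separation, and none higher, while 10 separated lower irrespective of the fold (median -0.48). Of all genes, 6.03% were called lower, 4.37% with separation, and 12.9% separated lower at any fold. TP53I3, an oxidoreductase, spanned 5.04 to 8.37 CPM in the intact and 1.35 to 2.66 CPM in the edited libraries (main effect -1.83, SE 0.11, edgeR adjusted p = 4.71e-14). GDF15, a stress-induced cytokine, spanned 1.51 to 4.62 CPM against 0.362 to 0.751 CPM (main effect -2.28, SE 0.17, edgeR adjusted p = 9.87e-12). SPATA18, a mitochondrial quality control gene, had 106 counts over the intact and none over the edited libraries, at least 34.7-fold lower over the sides and at least 7.29-fold lower with CD123 edited. PMAIP1 and EDA2R, the p53 targets NOXA and an ectodysplasin receptor, lay on the other side without passing the fold threshold (main effects 1.03 and 1.32). CDKN1A, which encodes p21, had -0.84.

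Genes of ATF4 and the unfolded protein response formed the only list with 2 separated members called higher. ATF4 is a transcription factor translated under amino acid or endoplasmic reticulum stress. Of 25 genes tested, 2 were called higher, DDIT4 and CHAC1, both with separation. At adjusted p alone 20 were higher, and 10 separated higher, with a median of 0.79, against 32.9% and 13.9% of all genes. Called higher were 0.914% of all genes, 0.628% with separation. DDIT4, an inhibitor of the kinase mTORC1, was at 21.5, 22.1 and 21.97 CPM in wt, 67.9, 74.9 and 66.9 CPM in CD123 KO, 386.1, 441.8 and 427.5 CPM in CD33 KO and 144.2, 173.5 and 450.6 CPM in CD33/CD123 KO libraries (main effect 3.06, SE 0.29, edgeR adjusted p = 1.57e-05). CHAC1, a glutathione-degrading enzyme, was at 9.77, 9.2 and 9.27 CPM in wt, 16.7, 17.9 and 15.2 CPM in CD123 KO, 70.1, 82.8 and 78.7 CPM in CD33 KO and 21.9, 23.4 and 79.5 CPM in CD33/CD123 KO libraries (main effect 2.18, SE 0.33, edgeR adjusted p = 0.000353). CHAC1 was not called against the fold threshold itself (glmTreat, edgeR adjusted p = 0.197), which leaves DDIT4 as the 1 called member there. CD33/CD123 KO library 3 stood apart from the other libraries of its clone in both genes. ATF4 itself repeated this, with 548.6, 574.8 and 804.9 CPM in that clone, 797.1 to 850.3 CPM in CD33 KO and 435.2 to 456.5 CPM in the intact libraries. Without that library the main effects were 2.71 for DDIT4 and 1.75 for CHAC1 (edgeR adjusted p = 6.3e-12 and 6.95e-20), the list still had 2 called members with separation, and its median was 0.62.

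Most other lists held no separated call. Of all genes, 0.628% were called higher and 4.37% lower with separation, so the lack of a call in a list of 19 to 29 genes is near those shares. None was found among 25 S phase genes (median 0.15, with -0.14 in CD123-intact and 0.53 in CD123-edited cells), 25 G2 and mitosis genes, 20 HLA class I genes (median 0.30), 23 cholesterol synthesis genes (median 0.27), 24 hypoxia and glycolysis genes (median 0.18), 19 sialyltransferase and sialic acid genes, 19 DNA methylation genes or 29 KMT2A, menin and Polycomb genes. The G2 and mitosis median was 0.06 and turned negative under upper-quartile and library-size scaling. Of the cholesterol and the hypoxia lists, 7 members each separated higher without reaching the fold threshold, against 13.9% of all genes. In the S100 and annexin list of 20, 2 genes were called higher and 3 lower, against 0.914% and 6.03% of all genes. Of these calls only S100A4, a calcium-binding protein linked to cell motility, separated the sides (70.1 to 81.6 against 15.6 to 33.8 CPM, main effect -1.63, SE 0.07, edgeR adjusted p = 1.2e-10). That is near the 4.37% of all genes called lower with separation. Among markers of other cell types, NKG7, a cytotoxic granule gene, and ITGA2B, the platelet integrin alpha-IIb, were called lower with separation (main effects -2.33 and -2.24), each under 3 CPM in every library. Of the 8 B cell markers 3 were tested and all 3 were called lower, against 6.03% of all genes. The part of other cell types in these calls was not tested. The mast cell list (3 of 6 called lower, against 6.03% of all genes), COL1A2 of the fibroblast list, CD74 of the HLA class II list and EPOR of the erythroid list (main effect -0.07) gave no separated call.

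**Figure D4:**
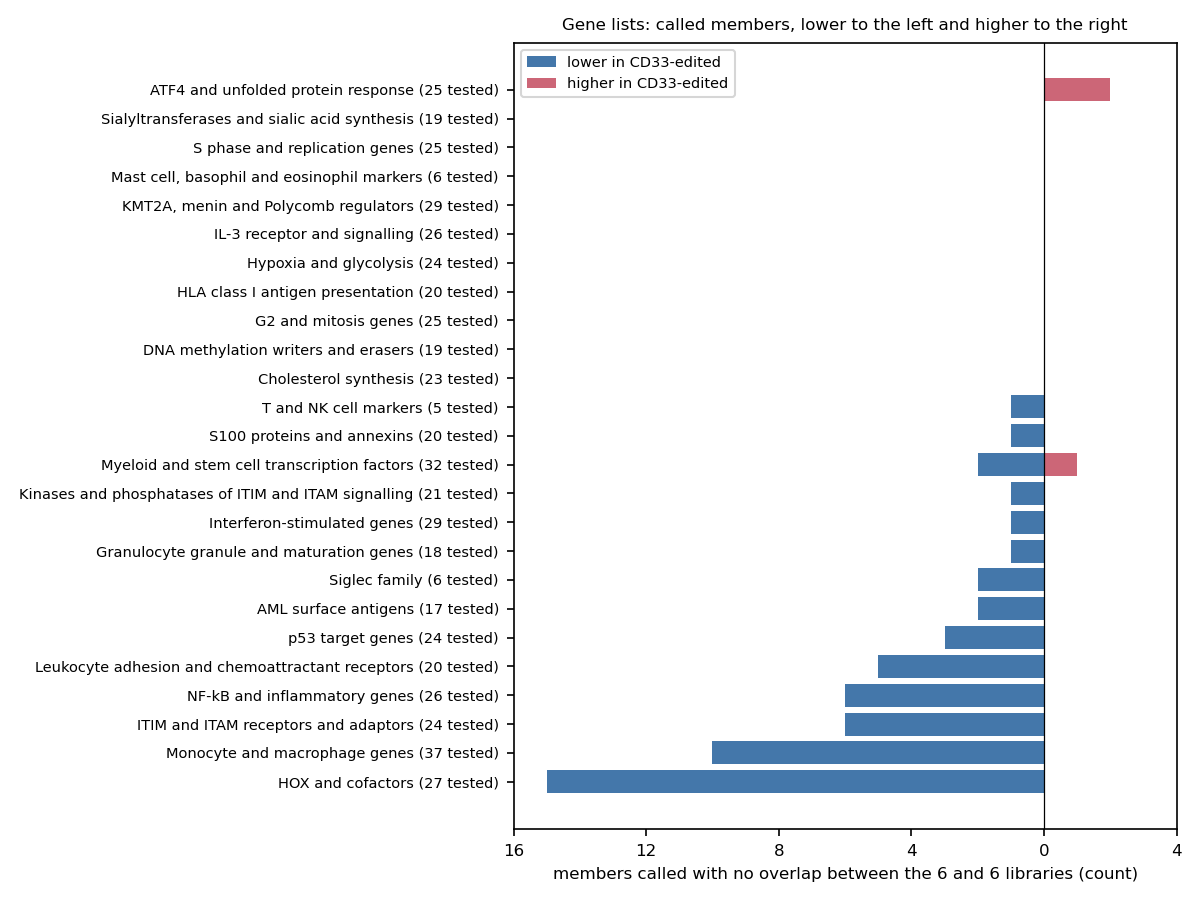
Number of members per gene list called with no overlap between the 6 edited and 6 intact libraries (lower to the left, higher to the right of 0), for lists with at least 5 genes tested, whose number stands beside each name. HOX genes and cofactors reach 15 lower and monocyte genes 10 lower. Only the list of ATF4 and the unfolded protein response with 2 and the transcription factors with 1 have a higher member.

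The members were spread over the genome, with shifts of whole chromosomes and of shorter stretches beneath them. Of 612 genes tested on chromosome 6, 41.3% separated higher and 4.41% lower, against 13.9% and 12.9% of all genes, and the median main effect was 0.38 (0.58 with CD123 intact, 0.17 with CD123 edited). All 15 bins of 10 Mb with at least 20 genes had a positive median there, from 0.19 to 0.55. Of 469 genes on chromosome 8, 34.8% separated lower and 15.1% higher, with a median of -0.28 (-0.34 and -0.16). On that chromosome the bins from 0 to 50 Mb had medians between -0.50 and -0.28, those between 70 and 130 Mb were positive (0.17 to 0.30), and the bin from 140 to 150 Mb stood at -0.56, with 70.9% of its 86 genes separated lower. No other chromosome had a median beyond 0.1 in either direction, but single bins elsewhere shifted as far. On chromosome 3 the bin from 50 to 60 Mb had a median of 0.35, with 50.6% of 89 genes separated higher. On chromosome 12 the bin from 0 to 10 Mb had 0.29 (41.6% of 101 higher), and on chromosome 1 that from 220 to 230 Mb had 0.19 (38.5% of 65 higher). On chromosome 10 the bin from 130 to 140 Mb had -0.33 (44% of 25 lower). Further bins shifted as well, such as that from 130 to 140 Mb on chromosome 7 (0.23, 26.5% of 34 higher) and that from 20 to 30 Mb on chromosome 19 (0.20, 28% of 25 higher). These bins were picked after their values were seen. These shifts stayed under the fold threshold of the calls. Without chromosomes 6 and 8, but with those bins, 25.1% of 12929 genes separated the sides and 73 higher and 562 lower calls with separation remained. The HLA class I heavy chain genes lie on chromosome 6 and TPD52 on chromosome 8, and the part of these shifts in their values was not tested. DNA copy number was not measured here.

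**Figure D5:**
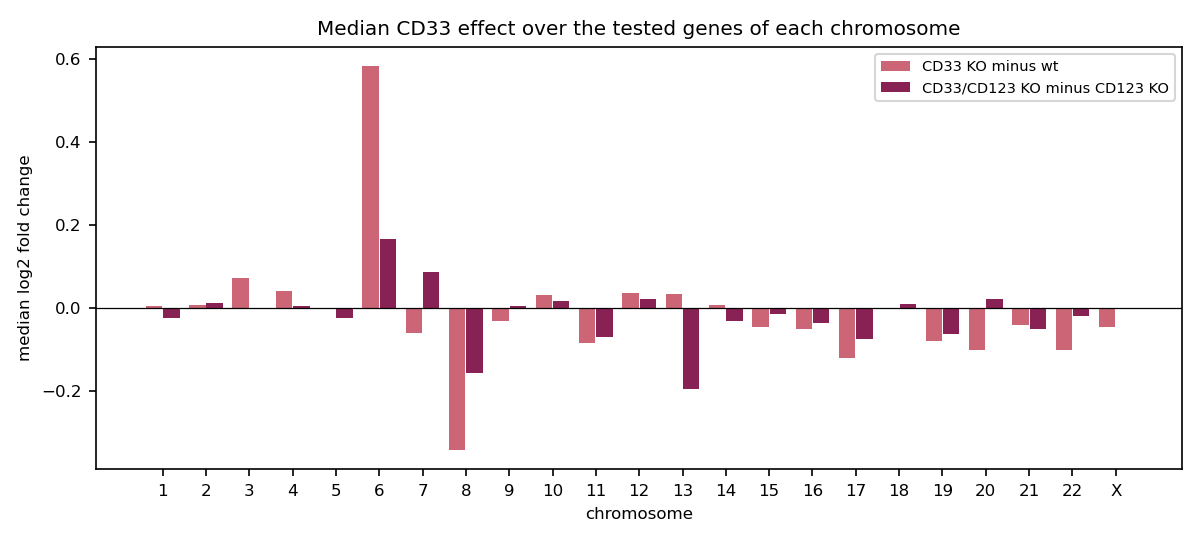
Median log2 fold change over the tested genes of each chromosome, for CD33 KO minus wt and for CD33/CD123 KO minus CD123 KO. Chromosome 6 stands at 0.58 and 0.17 and chromosome 8 at -0.34 and -0.16, while chromosome 13 is low in the CD123-edited background only (-0.19).

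Neighbouring members formed 67 runs of adjacent genes with the same direction. The longest held 10 genes, from HOXB2 to HOXB9 with HOXB-AS1 and HOXB-AS3, at chr17:46620019-46703835 (hg19). The next held HOXA3, HOXA4, HOXA-AS3, HOXA5 and HOXA6 at chr7:27145809-27195547. Antisense members of these runs cannot be told from their sense neighbours in these counts. Runs of 3 included ASCL2, C11orf21 and TSPAN32 on chromosome 11 and MAP2K6, KCNJ2-AS1 and KCNJ2 on chromosome 17, all lower. On chromosome 19 the zinc finger genes ZNF682, ZNF90 and ZNF486 rose together, with main effects of 1.97, 2.13 and 1.67 (edgeR adjusted p = 1.96e-10, 2.45e-14 and 9.54e-19). ZNF486 was at 21.9 to 25.9 CPM in the edited and 6.98 to 8.13 CPM in the intact libraries, with effects of 1.75 and 1.59 in the 2 backgrounds. The 3 zinc finger genes lie in the shifted bin from 20 to 30 Mb, and the part of that shift in their values was not tested. These genes were named because they adjoin, after their values were seen.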

How the data were processed

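Per the submitters' processing notes, the authors aligned reads to hg19 with HISAT2, counted them per gene with featureCounts and used edgeR. Their versions, and how strand and multiply mapped reads were handled, are not given in the sources used. The deposited table holds raw counts for 26259 genes and 12 libraries, of which 6802 genes had no count. Gene positions are those of the table.

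All 12 libraries were fitted together in edgeR 4.0.16 (R 4.3.3) with 4 genotype means and no covariate, as no batch is labelled. After filterByExpr, 14010 genes remained, which were scaled with TMM and tested with the robust quasi-likelihood F-test and Benjamini-Hochberg adjustment over all genes of a contrast. A call needed an adjusted p below 0.05 and a log2 fold change beyond 1.5 in either direction, the thresholds of the series design. Standard errors were derived from the F statistic. With 8 residual degrees of freedom, the common coefficient that edgeR terms biological variation was 5.41%. It measures the spread between libraries of a genotype, which are not stated to be separate cultures. Levels in CPM use the TMM-scaled library sizes and are compared within a gene only. Separation is a description with no test of its own. For a gene without counts on a side, the fold is a bound against 3 counts over the side or group. Where 1 to 3 counts were seen, the ratio carries an exact 95% interval for counting error.

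Named genes were CD33 and IL3RA, and the 12 per direction with the largest main effect among separated calls with a higher side that averaged 5 CPM or more. The rule added the 6 per direction with the largest smaller background effect, up to 4 separated calls per list by adjusted p, the 4 per direction of the largest calls that overlap, the 4 per direction with the lowest interaction p, and the genes at the line of separation. Some named genes are not reported here, and genes named otherwise were chosen after their values were seen. The members, the 30 gene lists and the tests were chosen with earlier results of these data known.

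The procedure was tested on simulated counts of 13773 genes, where it called 0 of 67 genes changed by 1 on the log2 scale, which is under the threshold, 67 of 67 changed by 2 and 66 of 66 changed by 3, with 0 false calls. Changes were placed only in genes that averaged 5 CPM or more, with equal effects in both backgrounds. All genes were given the same variation. Changes in genes of lower level, interactions and clone differences were not simulated, so the simulation says nothing about them. DESeq2 1.42.0 and limma-voom 3.58.1 were alternatives, besides other scalings, filters, thresholds and designs, and each library was left out in turn.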

Additional observations from a re-analysis of the deposited data

Results flagged for a closer look

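For the named genes below, the CD33 effect differed between the CD123 backgrounds, by the interaction test with the call thresholds (edgeR adjusted p under 0.05 and over 1.5 on the log2 scale). Values below are the log2 effect with CD123 edited minus that with CD123 intact. Among the risers the interaction was -8.48 for ZNF503-AS1, -8.22 for ITIH5, -4.15 for UBL4B, -3.23 for SERPINB2, -3.15 for CNKSR3, -2.97 for TFEC, -2.89 for SLPI, -2.38 for DDIT4, -2.31 for TNN, -1.96 for UG0898H09 and -1.64 for TPD52. All 11 were negative, so in these genes the CD33 effect was smaller where CD123 was edited too. They are the named ones of 35 separated risers with a called interaction. Of the 88 separated risers, 10 were called only with CD123 edited, so the shared sign does not describe the risers in general. The interaction was also negative for the overlapping calls DUXAP8 (-7.06), ANXA8L1 (-6.74) and CDKN2A (-3.37). Among genes that fell, the effect was less deep with CD123 edited for MEIS1 (4.09), RAB13 (3.06), CX3CR1 (2.71), HOXB2 (2.54), HOXB6 (2.54), MAGED1 (2.41), SDC2 (1.96), ITGB7 (1.79) and CD36 (1.63). For RAB13 that rests on 1 count in CD33 KO and 4 in CD33/CD123 KO, and for MAGED1 on 7 and 10. HOXB2 and HOXB6 were near the floor in both edited clones too, so these 4 genes were almost lost in either background. The effect was deeper with CD123 edited for DPEP1 (-7.89), MYO1G (-6.45), CD74 (-6.32), CCL2 (-3.07), TSLP (-2.95), CCL3 (-2.79), CD14 (-2.50), FEZ1 (-1.93), SOCS3 (-1.68) and NKG7 (-1.52). CLIC5 had -8.49, with no effect past the test where CD123 was intact (-0.90, edgeR adjusted p = 0.278). TPSAB1 had -8.96 and turned direction, with 0.99 where CD123 was intact (edgeR adjusted p = 0.00106). IL3RA had 1.83, with no call of its main effect.

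In 3 genes a library lay far from the other 5 of the edited side, as the gap to its neighbour divided by the whole range of the 6. The bound was Dixon's 95% critical value, which chance passes in about 1 in 20 groups. B4GALNT4 had its only edited count in CD33 KO library 1 (0.0168 CPM, ratio 1). NEURL1 had no count in CD33/CD123 KO library 2 (ratio 0.628). PRSS57 was at 0.06 CPM in CD33 KO library 2 (ratio 0.686). All 3 values are at or under a few counts.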

How the results depend on the processing

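No paired analysis was possible because the numbers in the sample titles are not shared between the genotypes. With RLE, upper-quartile or library-size scaling, a filter of 1 CPM in 3 libraries, DESeq2, limma-voom, a fit that is not robust or an additive fit, every count of calls given for the main effect stayed within 1.5 times its value. Leaving out each library gave 981 to 1109 calls of the main effect (126 to 139 higher, 845 to 970 lower), of which 86 to 99 were separated higher and 626 to 668 lower. The effect with CD123 intact then called 1197 to 1292 genes, that with CD123 edited 1025 to 1172, the interaction 802 to 897 and the CD123 main effect 346 to 396. Without a low-count filter the main effect called 1544 genes, 1376 of them lower. At a log2 fold change over 1 it called 1554 genes (280 higher, 1274 lower, 186 separated higher), the background effects 1862 and 1715, the interaction 1499 and the CD123 main effect 689. At adjusted p alone these were 9425 (4608 higher, 4817 lower, 1951 separated higher and 1811 separated lower), 8838, 8350, 6901 and 6848. A test against the fold threshold itself (glmTreat) called 623 (65 higher, 558 lower), 744, 511, 342 and 112. Those counts moved because the threshold or the number of genes tested changed. The main effect of ANXA8L1 turned to -0.83 when the libraries were fitted as 2 groups of 6, and the cause was not tested. In that fit ITIH5 (2.10, adjusted p = 0.13), ZNF503-AS1 (2.30, adjusted p = 0.0557) MYO1G (-2.19, adjusted p = 0.0924), DUXAP8 (1.31, adjusted p = 0.254), CDKN2A (1.02, adjusted p = 0.3), CD74 (-1.29, adjusted p = 0.277) and TNN (1.25, under the fold threshold) were not called. The additive fit did not call ANXA8L1 (0.18, adjusted p = 0.829), DUXAP8 (2.30, adjusted p = 0.0748) or TPSAB1 (-1.98, adjusted p = 0.177). With glmTreat SIGLEC9, SIGLEC1, CHAC1, KLF2 (adjusted p = 0.175), ITGB7 (0.327), S100A4 (0.238), EGR3 (0.0924), ANXA8L1 (0.0648) and TNN (1) were not called, and TNN was under 1.5 with upper-quartile (1.49) and library-size scaling (1.45). Over all single genes and settings, 1741 values kept their direction and call, 23 lost the call and 1 reversed. Leaving out chromosomes 6 and 8 was added after seeing the data. Genes under the CPM of 3 counts, 0.187 in the shallowest library, are limited by depth. Each genotype was 1 population, so no test here covers the spread between clones.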

Other observations

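WT1, a transcription factor that is widely expressed in AML and used there as a marker of residual disease, was among the separated genes that fell. It was at 14.07, 12.2 and 12.2 CPM in wt, 11.6, 10.4 and 10.1 CPM in CD123 KO, 0.538, 0.27 and 0.434 CPM in CD33 KO and 0.39, 0.36 and 0.289 CPM in CD33/CD123 KO libraries. Both edited clones were low to a like degree, with effects of -4.86 and -4.91 (main effect -4.89, SE 0.13, edgeR adjusted p = 1.8e-21). Its antisense neighbour WT1-AS was separated in the same direction, and reads of the 2 cannot be told apart here. Among the 35 genes without a count on the edited side were IL10, an anti-inflammatory cytokine, MPEG1, the macrophage pore-forming protein perforin-2, NPY, neuropeptide Y, and CDH2, N-cadherin. IL10, MPEG1 and CDH2 were under 0.6 CPM in every intact library, and NPY was at 1.56, 1.48 and 1.51 CPM in wt and 0.102, 0.112 and 0.119 CPM in CD123 KO libraries.

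AKR1C1 and AKR1C2, neighbouring aldo-keto reductases of steroid metabolism, rose together. AKR1C1 was at 1.99, 1.92 and 1.7 CPM in wt, 5.51, 5.88 and 5.24 CPM in CD123 KO, 9.44, 9.78 and 9.59 CPM in CD33 KO and 19.9, 18.3 and 21.5 CPM in CD33/CD123 KO libraries (main effect 2.10, SE 0.07, edgeR adjusted p = 1.63e-18). The CD33/CD123 KO clone was the highest and wt the lowest. AKR1C2 had a main effect of 2.17 (SE 0.11, edgeR adjusted p = 5.77e-15). The coding sequences of these genes are near-identical, so reads may be shared. All genes of these paragraphs were chosen after their values were seen.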
